A study of Mus musculus with 42 samples.

Results

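Macrophages grown from the bone marrow of old mice were stimulated with lipopolysaccharide (LPS), the outer-membrane glycolipid of Gram-negative bacteria, and their transcriptome was compared with that of unstimulated cells. All mice were male wild-type C57BL/6. The stimulated group comprised 3 libraries from mice of 18 to 20 months whose macrophages received LPS at 100 ng/mL for 4 h. The control group comprised 3 libraries from mice of the same ages whose cells had 0.1% normal saline for 24 h, with collection on day 3. These 6 libraries, out of 42 in the series, were chosen by their labels alone. Further groups enter the comparisons at the end: 3 libraries of aged cells given β-glucan, a yeast cell wall polysaccharide, at 5 µg/mL for 4 h, and 6 LPS and 6 control libraries of cells from mice of 10 to 12 weeks, treated as the aged ones were. The labels name no other control, and the time in culture of the LPS cells is not given in the sources used here, so the LPS and control groups may differ in time as well as in LPS. The cells were grown from whole marrow with macrophage colony-stimulating factor, without a sorting step in the protocols. The library kit was NEBNext Ultra RNA. The labels call the libraries biological replicates but do not say whether they came from separate mice or cultures, so the p-values measure the spread between these samples, which may in part be technical.

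LPS is recognised by Toll-like receptor 4 (TLR4) together with MD-2 and CD14. The receptor signals through a pair of adaptors: MyD88 leads to NF-κB and mitogen-activated protein kinases and to inflammatory cytokines, and TRIF leads to the transcription factor IRF3 and to interferon-β. Secreted interferon-β then acts back on the macrophage through its receptor and induces antiviral genes. Macrophages are a main source of these mediators in tissue, and the first hours of the response also include feedback inhibitors, a shift in arginine and itaconate metabolism and a loss of genes typical of the resting cell.

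The 3 LPS libraries held 40831949 to 54631389 counts and the 3 controls 43086578 to 67347866. Pairs of libraries correlated at 0.991 to 0.992 within the LPS group and at 0.984 to 0.989 within the controls. Between the groups they correlated at 0.625 to 0.668. These are Pearson's r on the log2 scale of CPM, the share of a library's counts multiplied by 1e6. They were taken across the 8423 tested genes whose log2 CPM averaged 3 or more over the 6 libraries. Genes are not independent replicates. Genes that rose at least 2-fold held 47.7 to 49.1% of all counts in LPS libraries, against 13.2 to 13.99% in controls. Scaling by the trimmed mean of M values (TMM), used for all values here, therefore set the LPS libraries up relative to their totals, with factors of 0.725 to 0.747 in LPS libraries, against 1.22 to 1.23 in controls. With scaling to total counts alone, the median log2 change of all tested genes was -0.82, against -0.08 with TMM, a shift of -0.74. Changes are given on the TMM scale. Of 521 called rises among the list members and named genes, 62 turned into falls when only the total was used, the largest of them 0.73 on the log2 scale, and no fall turned. Summed CPM of 10 macrophage markers was 27938 to 33073 in LPS libraries and 27604 to 29147 in controls, and all 10 were above 1 CPM. Among the marker lists of 11 other cell types, Elane, Mpo and Ly6g (neutrophils), Cd3d, Cd3e, Cd3g, Cd8a and Trbc2 (T cells) and 5 of 7 natural killer cell markers had 0 counts in all 6 libraries. The dendritic cell list summed to 9.60 to 13.9 CPM after LPS and 1.23 to 1.58 CPM in controls, the T cell list to 20.7 to 26.2 CPM after LPS and 61.0 to 81.5 CPM in controls, the megakaryocyte list to 197 to 255 CPM after LPS and 135 to 174 CPM in controls, the osteoclast list to 84.8 to 116 CPM after LPS and 117 to 145 CPM in controls, and the erythroid list to 0 to 0.100 CPM after LPS and 0.132 to 0.183 CPM in controls. The ranges of the other 6 lists overlapped between the groups, though not all of these lists were near absent. The stromal list summed to 101 to 163 CPM after LPS and 46.4 to 134 CPM in controls. The endothelial list summed to 93.0 to 107 CPM after LPS and 83.2 to 103 CPM in controls. Single genes made up most of several sums. In means of LPS against control libraries, Il7r of the T cell list fell (18.8 against 64.7 CPM), while Lck rose (2.70 against 0.0514 CPM). Atp6v0d2 of the osteoclast list fell (57.9 against 120 CPM), while Acp5 rose (27.5 against 0.914 CPM). Pf4 (226 against 151 CPM) made up most of the megakaryocyte sum, and Xcr1 (7.75 against 0.347 CPM) most of the dendritic sum after LPS. The sums are therefore not measures of cell number. The part of other cell types in the results was not tested. In bulk RNA, fewer cells of a type and less RNA per cell cannot be told apart.

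The question of the main comparison was which genes old macrophages switch on or off in their first 4 h with LPS. Of 17648 tested genes, 9974 (56.5%) passed edgeR's quasi-likelihood test at a Benjamini-Hochberg adjusted p below 0.05. There were 4865 genes higher (27.6%) and 5109 lower (28.9%), so 48.8% of the calls were higher. With scaling to total counts alone, 2393 genes were higher and 9697 lower, and 19.8% of the calls were higher. A change of at least 2-fold was reached by 2752 rising genes (15.6%) and 3078 falling genes (17.4%). All 3 LPS libraries lay above all 3 controls for 4958 genes (28.1%) and below them for 5606 (31.8%). The counts given for gene groups stand against these shares of all tested genes.

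The largest rise belonged to Il12b (ENSMUSG00000004296; chr11:44400063-44414033 in mm10), which encodes the p40 subunit shared by interleukin-12 and interleukin-23. Il12b had 1821, 1519.6 and 1975 CPM in the LPS libraries and 0 counts in every control. Set against a floor of 3 counts over the control group (0.0160 CPM), Il12b was at least 112262-fold higher. Il6, the pyrogenic cytokine that drives the acute-phase response, had 1410.1, 1219.6 and 1141 CPM in the LPS libraries, against 0.207, 0.208 and 0.183 CPM in the controls (log2 fold change 12.62 ± 0.29 SE, adjusted p = 1.03e-36). Cxcl10, a chemokine for T cells, had 8760.2, 7751 and 9571 CPM in the LPS libraries, against 1.77, 2.12 and 0.940 CPM in the controls (12.47 ± 0.52, adjusted p = 2.29e-19). In each of these genes the LPS libraries stood close together and far above every control. Oasl1, a member of the oligoadenylate synthetase family that restrains Irf7 translation in mice, had 1126, 1239.8 and 1238 CPM in the LPS libraries, against 0.339, 0.302 and 0.0977 CPM in the controls (12.37 ± 0.33). Ptgs2, the inducible cyclooxygenase of prostaglandin synthesis, had 5023, 3393 and 3196 CPM in the LPS libraries, against 1.75, 0.472 and 1.10 CPM in the controls (11.77 ± 0.41). The 12 largest rises were ranked among called genes whose log2 CPM averaged 3 or more over the 6 libraries, with groups apart and no clone name. This leaves out larger rises of genes with a lower average, such as Nos2 (average 2.41) and Cxcl11 (average 0.58), described later. The others of the 12 were the neutrophil chemokines Cxcl1 (11.32) and Cxcl3 (11.11), the antiviral enzyme viperin, encoded by Rsad2 (10.70), and the mitochondrial nucleotide kinase Cmpk2 (10.58), with Il1b (10.48), the DNA-binding Ifi205 (10.48) and Il27 (10.17). Their groups did not overlap either.

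In the same ranking, the largest falls were smaller than the largest rises. The limit of 3 on mean log2 CPM leaves out genes that fell close to 0. Larger falls therefore lie outside the ranking, such as those of Vash2 (-7.08, with a mean of 2.88 CPM in controls) and of E2f2, described later. Lhfpl2, a tetraspan membrane protein gene, had 3.45, 5.15 and 7.20 CPM in the LPS libraries, against 246, 264 and 281 CPM in the controls (-5.62 ± 0.19, adjusted p = 1.99e-25). Tmem86a, a lysoplasmalogenase, had 1.47, 3.51 and 2.10 CPM in the LPS libraries, against 80.9, 89.2 and 108 CPM in the controls (-5.32 ± 0.22), and Arhgap19, a GTPase-activating protein, had 5.37, 6.40 and 5.80 CPM in the LPS libraries, against 225, 234 and 219 CPM in the controls (-5.27 ± 0.18). All 3 LPS libraries lay far below all 3 controls in each. The receptors S1pr1, through which lymphoid and myeloid cells sense sphingosine-1-phosphate, and Cxcr4, which retains cells in the marrow, fell by 5.16 and 4.93 on the log2 scale. Egr1, an immediate-early zinc finger factor, had 7.22, 4.72 and 7.28 CPM in the LPS libraries, against 139.6, 269 and 164 CPM in the controls (-4.88 ± 0.73, adjusted p = 8.67e-07). Its controls spread more widely than those of the other falling genes, yet the groups stayed apart. Cebpa, the factor that sets myeloid identity, had 9.35, 12.3 and 12.6 CPM in the LPS libraries, against 208, 226 and 337 CPM in the controls (-4.49 ± 0.24). The others of the 12 largest falls in this ranking were Slc26a11 (-4.97), Rab3il1 (-4.88) and the RNA decay factor Zfp36l1 (-4.84). The sorting nexin Snx24 (-4.68) and Gmnn, the inhibitor of replication licensing (-4.45), completed them.

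The promoters of 5 strongly raised genes are shown because they carry short matches to the motifs read by NF-κB and by the interferon-activated factors. Each line gives the 200 bases before the RefSeq transcription start (GRCm38.p6), 5′ to 3′ on the gene's strand. Capitals mark matches on either strand to a κB motif (GGGNNNTTCC), to an interferon-stimulated response element (ISRE, GAAANNGAAA) or to an AP-1 motif (TGANTCA).
Cxcl10, chr5:92348890-92349089 (minus strand): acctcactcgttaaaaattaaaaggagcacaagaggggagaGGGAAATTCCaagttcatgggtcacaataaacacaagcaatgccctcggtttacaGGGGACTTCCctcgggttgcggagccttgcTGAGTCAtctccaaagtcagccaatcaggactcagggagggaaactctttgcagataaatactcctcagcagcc
Il6, chr5:30012914-30013113 (plus strand): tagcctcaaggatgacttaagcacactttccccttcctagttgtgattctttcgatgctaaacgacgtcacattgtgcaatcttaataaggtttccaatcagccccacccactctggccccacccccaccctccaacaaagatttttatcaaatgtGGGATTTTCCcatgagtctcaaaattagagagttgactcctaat
Nfkbia, chr12:55492648-55492847 (minus strand): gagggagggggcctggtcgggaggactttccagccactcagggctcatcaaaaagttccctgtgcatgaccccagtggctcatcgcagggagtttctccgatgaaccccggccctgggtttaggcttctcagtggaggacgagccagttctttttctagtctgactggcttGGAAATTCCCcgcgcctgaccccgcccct
Ifit1, chr19:34640689-34640888 (plus strand): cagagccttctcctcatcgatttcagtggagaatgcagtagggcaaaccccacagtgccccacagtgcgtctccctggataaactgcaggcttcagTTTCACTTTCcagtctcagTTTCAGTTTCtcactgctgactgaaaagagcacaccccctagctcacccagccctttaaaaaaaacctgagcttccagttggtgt
Gbp5, chr3:142496734-142496933 (plus strand): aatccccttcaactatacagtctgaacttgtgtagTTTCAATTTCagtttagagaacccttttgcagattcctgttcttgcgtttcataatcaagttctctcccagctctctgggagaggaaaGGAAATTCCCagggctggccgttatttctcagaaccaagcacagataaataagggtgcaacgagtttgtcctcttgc
In these windows Cxcl10 held 2 κB matches and 1 AP-1 match, Il6 and Nfkbia 1 κB match each, Ifit1 2 ISRE matches and Gbp5 1 κB and 1 ISRE match. No 2 of the marked matches overlapped. None of the 3 motifs was found in the same window of Il12b, Tnf, Ccl3, Oasl1 or Cmpk2, which says only that these letters are not there. Over the 250 bases before the start of the 11337 tested genes with an entry (14370 windows), 5.33% of windows held the κB letters, 2.83% the ISRE letters and 4.85% the AP-1 letters. Among genes that rose at least 2-fold the shares were 6.60%, 5.94% and 7.04%, and among genes that fell at least 2-fold 5.05%, 2.17% and 4.34%. The ISRE letters stood in 18 of 52 windows (34.6%) of the antiviral genes described later and in 10 of 12 windows (83.3%) of the interferon-inducible GTPases. The κB letters stood in 15 of 30 windows (50.0%) of the NF-κB genes and in 4 of 10 windows (40.0%) of the CXC chemokines. They stood in only 1 of 7 windows (14.3%) of the CC chemokines and 1 of 13 (7.69%) of the interleukin-6, interleukin-12 and interleukin-10 families. Among the replication and mitosis genes 1 of 36 windows (2.78%) held them. A match is a description of the sequence and not a shown binding site.

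In the tumour necrosis factor (TNF) family most ligands and receptors rose. Tnf itself, the early inflammatory cytokine, had 8406, 9564 and 8749 CPM in the LPS libraries, against 21.3, 26.1 and 24.2 CPM in the controls (8.54 ± 0.27, adjusted p = 4.60e-23). Of 24 tested ligands and receptors of the family, 17 rose and 4 fell (14 and 7 with scaling to total counts alone), with a median log2 change of 2.84. The costimulatory receptor Cd40 had 2059.7, 2159 and 2003 CPM in the LPS libraries, against 3.18, 2.002 and 1.75 CPM in the controls (9.85 ± 0.25), and its groups lay far apart. The ligands Tnfsf15, an activator of T cells, and Tnfsf10, the death ligand TRAIL, rose by 9.16 and 8.93. Tnfsf4 (OX40 ligand, 4.85) and Tnfsf9 (4-1BB ligand, 2.46) also rose, as did both TNF receptors, Tnfrsf1b (3.29) and Tnfrsf1a (1.38). Tnfrsf21 (-2.03), Tnfrsf26 (-2.10), Tnfsf12 (-0.46) and Tnfsf13 (-0.56) fell. Ltbr, Tnfsf14 and Tnfsf13b were not called, and Fasl was too low to test.

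In the interleukin-1 family, 9 rose and 1 fell (8 and 1 with scaling to total counts alone) of 13 tested members. Il1b had 5089, 3659 and 3989.6 CPM in the LPS libraries, against 2.95, 4.36 and 1.93 CPM in the controls (10.48 ± 0.46, adjusted p = 1.07e-18) and Il1a had 2091, 1505 and 1969 CPM in the LPS libraries, against 1.28, 3.48 and 2.33 CPM in the controls (9.62 ± 0.33). The groups did not come near each other. The receptor antagonist Il1rn rose to a mean of 359 CPM with LPS against 14.5 CPM in controls (4.64 ± 0.32), and Il18 and its decoy Il18bp rose by 4.35 and 2.64. Sigirr, an inhibitory receptor of the family, fell by 1.96 on the log2 scale. Il1r1, Il1rl1 and Il18rap were not called, and Il1r2 and Il18r1 were not tested.

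Of 21 tested cytokines and receptors of the interleukin-6, interleukin-12 and interleukin-10 families, 17 rose and 4 fell (16 and 4 with scaling to total counts alone). Besides Il12b, the other interleukin-12 subunit Il12a had 8.88, 9.42 and 8.35 CPM after LPS and 0 counts in the controls (at least 553-fold higher), and Il23a, which pairs with p40 in interleukin-23, had 1.09, 1.25 and 0.725 CPM in the LPS libraries, against 0.0188, 0 and 0 CPM in the controls. The 2 chains of interleukin-27, Il27 and Ebi3, rose to means of 1067 CPM with LPS against 0.925 CPM in controls (10.17 ± 0.22) and 198 CPM with LPS against 24.8 CPM in controls (3.00 ± 0.16). Il15 and its presenting receptor Il15ra rose together, by 5.86 ± 0.19 and 5.08 ± 0.25. The anti-inflammatory Il10 had 7.40, 4.17 and 4.30 CPM in the LPS libraries, against 0.320, 0.718 and 0.256 CPM in the controls (3.69 ± 0.44, adjusted p = 8.47e-10), so its level stayed low beside that of Il6 even though the groups did not overlap. The signalling receptors for interleukin-6 went the other way: Il6ra had 6.58, 5.09 and 6.08 CPM in the LPS libraries, against 101, 109 and 100.5 CPM in the controls (-4.12 ± 0.15) and Il6st, the shared gp130 chain, fell by 1.55. Il4ra (-0.69) and Il10rb (-0.18) also fell.

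**Figure D1:**
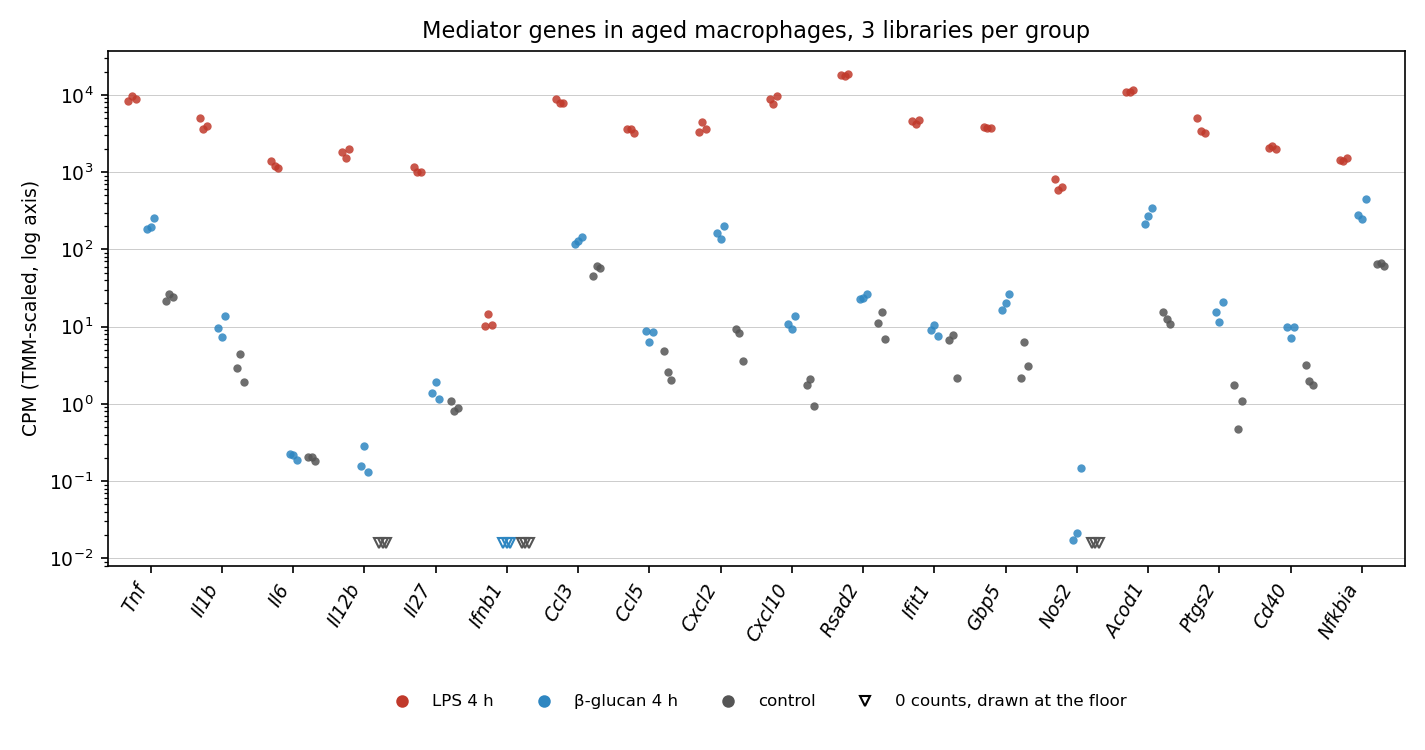
Level of 18 mediator genes in each library of aged macrophages, in CPM on a log axis, with LPS at 4 h on the left of each gene, β-glucan at 4 h in the middle and control on the right. Each point is 1 library and open triangles mark 0 counts, drawn at the floor of 0.0160 CPM; for all 18 genes the 3 LPS libraries lie above every β-glucan and control library.

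Chemokines rose as a group. Of 12 tested CC chemokines 10 rose and 0 fell (10 and 1 with scaling to total counts alone), and of 13 tested CXC chemokines 9 rose and 1 fell (8 and 1 with scaling to total counts alone). The median log2 change was 6.41 in the CC list and 9.12 in the CXC list (6.51 with genes at 0 in the controls placed at their bound). Ccl3, which attracts monocytes and T cells, had 8757, 7833 and 7901 CPM in the LPS libraries, against 45.4, 60.1 and 58.04 CPM in the controls (7.23 ± 0.16, adjusted p = 7.08e-33), and Ccl4, its close relative, had 3462, 4039.7 and 3336 CPM in the LPS libraries, against 31.1, 27.8 and 37.7 CPM in the controls (6.80 ± 0.16). Both were already present in controls, and the groups did not overlap. Ccl5, a chemokine for T cells and monocytes, had 3584, 3580.1 and 3258 CPM in the LPS libraries, against 4.78, 2.61 and 2.03 CPM in the controls (10.16 ± 0.76). The monocyte chemokines Ccl2 and Ccl7 rose to means of 1802 CPM with LPS against 42.5 CPM in controls (5.40 ± 0.25) and 1158 CPM with LPS against 21.2 CPM in controls (5.76 ± 0.28). Ccl9 rose by 4.01 ± 0.21, while its neighbour Ccl6 did not differ by the test (0.02 ± 0.21, adjusted p = 0.944). The neutrophil chemokine Cxcl2 had 3302, 4519 and 3631 CPM in the LPS libraries, against 9.30, 8.22 and 3.60 CPM in the controls (9.13 ± 0.50). The ligands of CXCR3, which attracts T cells, rose together: Cxcl9 to a mean of 258 CPM with LPS against 0.119 CPM in controls (11.27 ± 0.49), Cxcl10 as given above, and Cxcl11 to 63.2, 48.9 and 47.7 CPM against 0 counts in controls, at least 3327-fold. Cxcl14 fell by 0.65 on the log2 scale. Pf4 rose by 0.58 with TMM and was among the genes that turned lower with total counts.

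Of 11 tested colony-stimulating and growth factor genes, 6 rose and 2 fell (5 and 5 with scaling to total counts alone). Csf1, which sustains macrophages, rose by 4.46 ± 0.26 to a mean of 844 CPM with LPS against 38.1 CPM in controls. Csf2 (GM-CSF) had 11.97, 6.92 and 8.28 CPM and Csf3 (G-CSF) 6.13, 3.02 and 3.20 CPM in LPS libraries, and both had 0 counts in controls (at least 569-fold and 257-fold). The macrophage receptor Csf1r fell by 0.65 and Vegfa by 1.94 on the log2 scale.

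Components of the LPS receptor changed unevenly. Tlr4 itself had 94.3, 70.99 and 67.4 CPM in the LPS libraries, against 92.8, 115 and 82.2 CPM in the controls (-0.32 ± 0.13, adjusted p = 0.0405). The groups overlapped, and the call was lost when any of 3 single libraries was left out (adjusted p = 0.150 without LPS replicate 2, 0.208 without LPS replicate 3 and 0.305 without control replicate 2) and with DESeq2 (0.0842). Cd14, the coreceptor that delivers LPS, had 1907, 1683 and 1977 CPM in the LPS libraries, against 197, 212 and 198 CPM in the controls (3.20 ± 0.21), and Ly96, which encodes MD-2, rose by 1.11 ± 0.16. Of 16 tested receptors and coreceptors, 11 rose and 3 fell (8 and 4 with scaling to total counts alone). The receptors for bacterial lipoproteins, Tlr2 (3.17), Tlr1 (2.50) and Tlr6 (2.26), and for RNA, Tlr3 (3.66) and Tlr7 (1.77), all rose. Tlr13, a sensor of bacterial ribosomal RNA in mice, had 129, 109 and 103 CPM in the LPS libraries, against 649.6, 556 and 533 CPM in the controls (-2.35 ± 0.13). Tlr5, the flagellin receptor, fell by 5.83 but was low throughout (0.0208 CPM with LPS against 1.22 CPM in controls). Lbp and Ly86 were not called.

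Among 24 tested adaptors and kinases below the Toll-like receptors, 17 rose and 5 fell (13 and 8 with scaling to total counts alone). Myd88, the adaptor of the NF-κB arm, had 349, 320.5 and 396 CPM in the LPS libraries, against 49.1, 45.3 and 43.3 CPM in the controls (2.95 ± 0.10), and Ticam1, which encodes TRIF, had 70.7, 63.7 and 65.2 CPM in the LPS libraries, against 18.4, 20.6 and 19.3 CPM in the controls (1.78 ± 0.11). Irak2 (3.28) and the inhibitory kinase Irak3 (2.48) rose, whereas Irak4 (-0.65) and Irak1 (-0.44), the kinases that start the MyD88 cascade, fell. Ripk2 (5.08), Ikbke (2.81), Tbk1 (1.52) and Map3k8 (2.72) rose. Tab1 fell by 1.43, and Map3k7 (TAK1) did not differ by the test (0.04 ± 0.09).

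Of 27 tested NF-κB subunits and feedback regulators, 23 rose and 1 fell (21 and 4 with scaling to total counts alone), with a median log2 change of 2.91. Nfkbia, the inhibitor IκBα, had 1424, 1399 and 1523 CPM in the LPS libraries, against 64.8, 66.9 and 60.4 CPM in the controls (4.50 ± 0.19, adjusted p = 8.05e-21). Tnfaip3 (A20), a ubiquitin-editing brake, rose to a mean of 1751 CPM with LPS against 68.4 CPM in controls (4.68 ± 0.20), and Nfkbiz, a nuclear coactivator needed for Il6, to 1288 CPM with LPS against 21.4 CPM in controls (5.92 ± 0.27). The subunits themselves rose too: Nfkb2 (4.27), Rel (3.72), Nfkb1 (3.49), Relb (2.50) and Rela (1.92). Traf1 rose most in the list (8.55 ± 0.27, 586 CPM with LPS against 1.59 CPM in controls). Tnip2, Otulin and Otud7b were not called, and Tnfaip8 fell by 0.45.

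Immediate-early transcription factors did not move as one. Of 26 tested, 12 rose and 11 fell. Fos had 29.3, 28.1 and 27.4 CPM in the LPS libraries, against 175, 227 and 147 CPM in the controls (-2.69 ± 0.31) and Jun had 43.9, 38.3 and 54.8 CPM in the LPS libraries, against 99.6, 109 and 137 CPM in the controls (-1.33 ± 0.14), so both AP-1 founders were lower at 4 h, with Egr1, Egr3 (-4.08), Fosb (-4.24) and Nr4a1 (-2.98). Junb (1.80), Atf3 (1.99), Klf6 (2.61), Maff (3.43) and Batf (4.12) rose. Earlier time points of LPS in aged cells were not analysed here. The phosphatases that shut off MAP kinases were split likewise (19 tested with the Sprouty and Spred inhibitors; 10 rose and 7 fell (6 and 8 with scaling to total counts alone)): Dusp2 rose by 4.77 ± 0.30 and Dusp16 by 2.97 ± 0.15, while Dusp6 and Dusp7, which act on ERK, fell by 3.08 and 2.81.

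Proteins that destroy cytokine mRNA were split in the same list. Of 16 tested, 9 rose and 4 fell (7 and 7 with scaling to total counts alone). Zc3h12a (Regnase-1), an endonuclease for Il6 mRNA, rose by 3.79 ± 0.14, Zfp36 (tristetraprolin), which destabilises Tnf mRNA, by 1.20 ± 0.23, and Arid5a, which stabilises Il6 mRNA, by 4.49 ± 0.26. The paralogs of Zfp36 went down: Zfp36l1 had 1.80, 2.26 and 2.73 CPM in the LPS libraries, against 54.4, 71.96 and 70.1 CPM in the controls (-4.84 ± 0.31) and Zfp36l2 fell by 3.04.

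The interferon arm began with Ifnb1, which encodes interferon-β. Ifnb1 had 10.1, 14.5 and 10.6 CPM in the LPS libraries and 0 counts in every control, at least 726-fold higher. Of 16 tested interferon, receptor, kinase and STAT genes, 12 rose and 2 fell (7 and 5 with scaling to total counts alone). Stat2 and Irf9, whose products are parts of the factor that reads the ISRE, rose by 3.79 ± 0.17 and 2.16 ± 0.11. Jak2 rose by 4.50 ± 0.11 and Tyk2 by 2.15 ± 0.11. Ifngr1, the ligand-binding chain of the interferon-γ receptor, had 76.9, 84.2 and 78.8 CPM in the LPS libraries, against 157, 169.8 and 153 CPM in the controls (adjusted p = 2.99e-12) and fell, and Stat6, the factor of interleukin-4, fell by 0.58.

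Of 11 tested interferon regulatory factors and their binding proteins, 6 rose and 4 fell (6 and 5 with scaling to total counts alone). Irf7, the amplifier of interferon genes, had 884, 879 and 827 CPM in the LPS libraries, against 12.7, 9.24 and 8.94 CPM in the controls (6.40 ± 0.39, adjusted p = 2.59e-15), and Irf1 had 825, 894 and 876 CPM in the LPS libraries, against 27.3, 31.3 and 29.3 CPM in the controls (4.88 ± 0.24). Irf3, the factor that TRIF activates without new transcription, fell by 0.33 on the log2 scale. Irf2bp2, a corepressor, had 8.34, 8.60 and 8.50 CPM in the LPS libraries, against 152, 147 and 162 CPM in the controls (-4.18 ± 0.23). Irf5 (2.03) and Irf8 (1.59), the lineage factors of the family, rose.

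All 54 tested antiviral interferon-stimulated genes rose, also with scaling to total counts alone, with a median log2 change of 4.85. Rsad2 had 18335, 17719.5 and 18585 CPM in the LPS libraries, against 11.2, 15.5 and 6.998 CPM in the controls (10.70 ± 0.43, adjusted p = 7.12e-20). Ifit1, which binds foreign RNA caps, had 4568, 4263 and 4715 CPM in the LPS libraries, against 6.68, 7.88 and 2.17 CPM in the controls (9.73 ± 0.48), and Mx1, a dynamin-like antiviral GTPase, had 3489, 3173 and 3090.3 CPM in the LPS libraries, against 4.01, 6.25 and 2.23 CPM in the controls (9.67 ± 0.51). None of these groups overlapped. The ubiquitin-like Isg15 rose by 8.57 ± 0.39 and its protease Usp18 by 7.55 ± 0.24. The RNA sensors Ifih1 (MDA5) and Ddx58 (RIG-I) rose by 6.47 ± 0.16 and 4.64 ± 0.25, the oligoadenylate synthetases Oas1a, Oas2 and Oas3 by 3.45, 3.84 and 3.83, and Eif2ak2 (PKR) by 3.45 ± 0.13. The smallest rise in the list was that of Bst2, the virus tether tetherin (1.73 ± 0.12).

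Interferon-inducible GTPases, which attack vacuoles of intracellular pathogens, rose further. Of 17 tested, 16 rose and none fell under either scaling, with a median log2 change of 7.42 (6.00 with the gene at 0 in controls placed at its bound). Gbp5 had 3902, 3680.2 and 3749.9 CPM in the LPS libraries, against 2.18, 6.27 and 3.09 CPM in the controls (9.97 ± 0.61, adjusted p = 4.86e-15), and Gbp2 had 2908, 2325 and 2453 CPM in the LPS libraries, against 7.77, 14.7 and 7.62 CPM in the controls (8.02 ± 0.56). Irgm1, which acts in autophagy of bacteria, rose to a mean of 1209 CPM with LPS against 34.8 CPM in controls (5.12 ± 0.20). Gbp8 was the exception (0.02 ± 0.43, adjusted p = 0.969). Of 16 tested sensors of nucleic acid in the cytosol, 12 rose and 4 fell. Ifi205 (10.48), Ifi209 (7.08), Nod2 (4.81) and Nod1 (4.04) rose. Tmem173 (STING) had 20.2, 15.2 and 14.4 CPM in the LPS libraries, against 28.4, 30.2 and 31.05 CPM in the controls (-0.85 ± 0.12), and Mavs fell by 0.95.

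The best known feedback inhibitors of cytokine receptors rose. Socs3, which blocks gp130 signalling, had 631, 671 and 727 CPM in the LPS libraries, against 3.71, 5.04 and 3.65 CPM in the controls (7.37 ± 0.39, adjusted p = 9.49e-17), Socs1 had 60.2, 71.4 and 93.5 CPM in the LPS libraries, against 0.753, 0.699 and 1.28 CPM in the controls (6.29 ± 0.29), and Cish rose by 6.67 ± 0.32. Over the whole list of 17 tested SOCS, PIAS and phosphatase genes, 9 rose and 6 fell (5 and 8 with scaling to total counts alone), with a median of 0.44. Socs6 (-1.19), Pias3 (-1.15) and Socs5 (-1.03) fell.

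**Figure D2:**
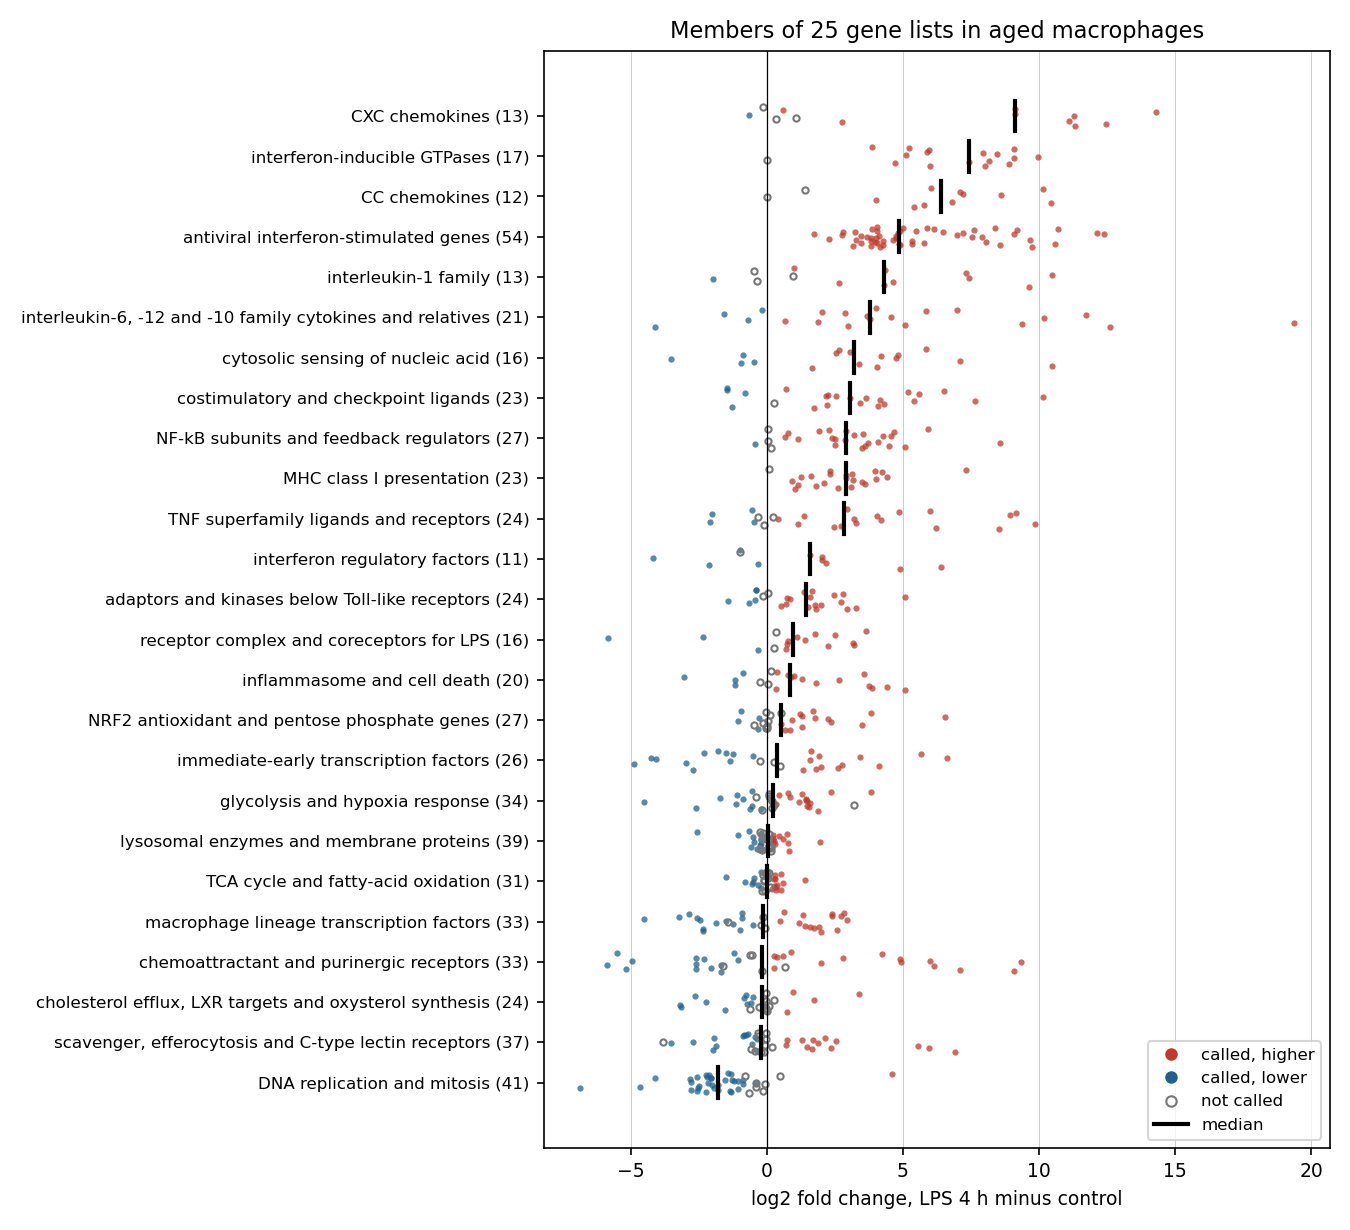
Log2 fold change (LPS at 4 h minus control) of the members of 25 gene lists in aged macrophages, 1 point per tested gene with the number tested in brackets, ordered by the list's median (black bar); with scaling to total counts every point would lie further left, so that small rises turn into falls, and fitted values of genes at 0 in the controls depend on the prior count. Red points were called higher, blue points lower and open points not called; the CXC chemokines have the highest median (9.12) and DNA replication and mitosis the lowest (-1.77).

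Of 20 tested inflammasome and cell death genes, 13 rose and 4 fell (9 and 9 with scaling to total counts alone). Nlrp3, the sensor that macrophages prime by transcription, had 1889.6, 1851 and 1788 CPM in the LPS libraries, against 51.5, 62.6 and 51.5 CPM in the controls (5.06 ± 0.19, adjusted p = 1.66e-22). Casp4, which encodes the mouse caspase-11 that binds cytosolic LPS, had 359.5, 327 and 299 CPM in the LPS libraries, against 23.8, 23.9 and 20.9 CPM in the controls (3.85 ± 0.11), and Casp1 and the pore protein Gsdmd rose by 2.65 ± 0.12 and 1.81 ± 0.14. The adaptor Pycard (ASC) fell by 0.88, Nlrc4 by 1.15 and Nlrp1b by 3.05 on the log2 scale. Ripk3, Naip5 and Gsdme were not called.

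The prostaglandin and leukotriene list moved in both directions. Of 19 tested, 5 rose and 7 fell (3 and 13 with scaling to total counts alone). Ptgs2 and Ptges, which make prostaglandin E2 in sequence, rose by 11.77 ± 0.41 and 4.17 ± 0.25. Ptgs1, the constitutive cyclooxygenase, had 12.5, 13.9 and 20.7 CPM in the LPS libraries, against 34.3, 50.6 and 45.9 CPM in the controls (-1.46 ± 0.22). Hpgds, the prostaglandin D2 synthase (-1.53), Tbxas1, the thromboxane synthase (-0.71), Hpgd, which degrades prostaglandins (-2.01), and Lta4h and Alox5ap of the leukotriene path (-0.83 and -0.50) fell.

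Nos2, the inducible nitric oxide synthase, had 823, 591 and 639 CPM in the LPS libraries and 0 counts in the controls, at least 42914-fold higher. Acod1, which makes itaconate, had 11024, 10780.5 and 11441 CPM in the LPS libraries, against 15.4, 12.6 and 10.95 CPM in the controls (9.74 ± 0.41, adjusted p = 2.75e-19). Of 18 tested genes of arginine, itaconate and cofactor metabolism and of the alternative state, 9 rose and 3 fell (8 and 6 with scaling to total counts alone). The arginine transporter Slc7a2 rose by 5.84 ± 0.27 and Gch1, the first enzyme of tetrahydrobiopterin synthesis, by 4.03 ± 0.14. Pts and Spr, the next enzymes of that path, fell by 0.22 and 0.79. Markers of the alternative state gave no call: Arg1 (0.0874 CPM with LPS against 0.0448 CPM in controls) and Chil3 (0.606 CPM with LPS against 0.392 CPM in controls) were below 1 CPM in the means of both groups, and Mrc1 had 547, 599 and 641 CPM in the LPS libraries, against 627, 781 and 667 CPM in the controls (-0.22 ± 0.15, adjusted p = 0.214).

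Glycolysis and hypoxia genes were mixed. Of 34 tested, 15 rose and 10 fell (11 and 19 with scaling to total counts alone). Rises included the kinases Hk1 (1.47), Hk2 (1.31), Hk3 (1.46) and Pfkp (2.36), the glucose transporter Slc2a1 (1.87 ± 0.21), the regulator Pfkfb3 (1.54), the lactate exporter Slc16a3 (1.45) and Hif1a (1.17 ± 0.11). The later enzymes Pkm (0.08 ± 0.11), Eno1 (0.20 ± 0.12) and Tpi1 (0.10 ± 0.10) did not pass the test, and Slc2a3 fell by 1.71. Counts of Gapdh and Aldoa were low, and their reads may be split with processed copies, so neither is interpreted. In the list of 31 tested genes of the tricarboxylic acid cycle and fatty-acid oxidation, 12 rose and 8 fell (1 and 30 with scaling to total counts alone), and the median was 0.03. Idh1 had 76.5, 86.4 and 77.7 CPM in the LPS libraries, against 224, 233 and 214 CPM in the controls (-1.48 ± 0.10, adjusted p = 2.06e-16), the only member of that list to fall at least 2-fold.

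Of 27 tested antioxidant and pentose phosphate genes, 14 rose and 4 fell (10 and 12 with scaling to total counts alone). The cystine importer Slc7a11 had 959, 1405 and 1270.4 CPM in the LPS libraries, against 13.2, 14.2 and 11.7 CPM in the controls (6.55 ± 0.41, adjusted p = 5.36e-15). Sod2, the mitochondrial superoxide dismutase, rose by 3.82 ± 0.12, the autophagy receptor Sqstm1 by 3.48 ± 0.17 and Txnrd1 by 2.23 ± 0.16. Hmox1 (-0.47 ± 0.25), Nqo1 (0.51 ± 0.26) and Gclm (-0.00 ± 0.16) did not pass the test, and Gclc fell by 1.07. Among 14 tested iron genes, 7 rose and 5 fell (5 and 7 with scaling to total counts alone). The exporter ferroportin, Slc40a1, had 91.2, 110.3 and 102 CPM in the LPS libraries, against 561, 745 and 556 CPM in the controls (-2.62 ± 0.21), and the siderophore binder Lcn2 rose by 5.84 ± 0.33.

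Sterol synthesis and uptake genes, 26 tested, gave 13 rises and 5 falls, but 4 rises and 13 falls with scaling to total counts alone, so no direction holds for the list. Dhcr7, which makes cholesterol in the last step of its path, fell by 1.55 with TMM and by 2.29 with total counts. Of 24 tested efflux genes, LXR targets and oxysterol enzymes, 4 rose and 10 fell (2 and 19 with scaling to total counts alone). Ch25h, which makes 25-hydroxycholesterol, had 8.26, 12.7 and 25.8 CPM in the LPS libraries, against 2.33, 1.34 and 1.09 CPM in the controls (3.37 ± 0.58). The nuclear receptors Pparg (3.04, 2.20 and 1.70 CPM in the LPS libraries, against 20.4, 22.8 and 18.97 CPM in the controls; -3.17 ± 0.25) and Rxra (-3.14 ± 0.15) fell, Nr1h3 (LXRα) rose by 1.72 ± 0.18, and Abca1, the efflux pump, fell by 0.58. Lysosomal genes (39 tested) had a median of 0.06 with 12 rises and 12 falls, or 1 and 34 with total counts. Tfeb, the factor that drives lysosomal genes, had 5.51, 5.97 and 5.58 CPM in the LPS libraries, against 30.5, 35.3 and 34.02 CPM in the controls (-2.55 ± 0.20, adjusted p = 1.55e-14), and Ctsc, which activates serine proteases, rose by 1.97 ± 0.09.

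Antigen presentation rose most uniformly for MHC class I. Of 23 tested class I genes, 22 rose and 0 fell (20 and 1 with scaling to total counts alone), with a median of 2.90. H2-K1 had 1913, 1978 and 1989.8 CPM in the LPS libraries, against 629.7, 617 and 636 CPM in the controls (1.64 ± 0.15), B2m rose by 1.16 ± 0.11, the peptide pump Tap1 by 4.24 ± 0.15, the immunoproteasome subunits Psmb8, Psmb9 and Psmb10 by 2.12, 2.34 and 2.90, and the class I coactivator Nlrc5 by 4.43 ± 0.14. Calr was not called. Counts of near-identical class I genes such as H2-Q6 and H2-Q7 can be split between copies. Class II genes stayed low: the coactivator Ciita had 18.5, 18.4 and 18.2 CPM in the LPS libraries, against 0.263, 0.321 and 0.220 CPM in the controls (6.12 ± 0.35), H2-Ab1 had 16.98, 16.8 and 14.7 CPM in the LPS libraries, against 3.18, 1.64 and 1.64 CPM in the controls (2.94 ± 0.50) and Cd74 rose by 2.62 ± 0.49. Of 13 tested class II genes, 5 rose and 1 fell (4 and 6 with scaling to total counts alone).

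Of 23 tested costimulatory and checkpoint genes, 18 rose and 4 fell (16 and 5 with scaling to total counts alone). Cd69, an early activation antigen, had 2470.2, 2297 and 2476 CPM in the LPS libraries, against 2.07, 2.46 and 1.97 CPM in the controls (10.14 ± 0.31, adjusted p = 1.98e-23). Cd274 (PD-L1) had 2909, 2508 and 2491 CPM in the LPS libraries, against 29.8, 30.00 and 26.5 CPM in the controls (6.52 ± 0.17). The adhesion ligands Icam1 and Vcam1 rose by 5.58 ± 0.19 and 7.63 ± 0.43, and Cd86, Cd80 and Cd83 by 2.55, 1.75 and 3.41. The ligand Cd47 rose by 2.23 ± 0.09 and its receptor Sirpa fell by 0.79. Vsir (VISTA, -1.27), Havcr2 (TIM-3, -1.47) and Cd200r1 (-1.47) fell.

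Receptors for particles and dying cells were split. Of 37 tested, 13 rose and 13 fell (10 and 22 with scaling to total counts alone). Clec4e (Mincle), a receptor for mycobacterial glycolipid, had 2706, 3081 and 2737 CPM in the LPS libraries, against 58.8, 42.6 and 35.00 CPM in the controls (5.97 ± 0.37, adjusted p = 4.23e-15), and the scavenger receptor Marco rose by 2.37 ± 0.50. Cd163, the haemoglobin scavenger receptor, had 1.12, 2.23 and 2.25 CPM in the LPS libraries, against 16.6, 25.99 and 21.5 CPM in the controls (-3.51 ± 0.31). Of the receptors that bind dying cells through Gas6 and protein S, Axl rose by 2.55 ± 0.17, and Mertk did not pass the test (179, 169 and 172 CPM in the LPS libraries, against 172, 194 and 168 CPM in the controls; -0.04 ± 0.11), while the ligand Gas6 fell by 0.86. Clec7a (Dectin-1), the β-glucan receptor, gave -0.42 ± 0.23 (adjusted p = 0.123). Among Fc receptors, the activating Fcgr1 (2.31) and Fcgr4 (2.67) and the inhibitory Fcgr2b (1.74) rose, and Fcgr3 fell by 0.90. In all, 4 rose and 3 fell (4 and 4 with scaling to total counts alone) of 8 tested Fc receptor genes.

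Of 33 tested chemoattractant and purinergic receptors, 15 rose and 13 fell (10 and 20 with scaling to total counts alone). The formyl peptide receptors Fpr1 and Fpr2 rose by 4.88 ± 0.20 and 6.15 ± 0.35, the medium-chain fatty-acid receptor Gpr84 by 4.24 ± 0.40 and the adenosine receptor Adora2a by 9.07 ± 0.27. Ccr7, the lymph node homing receptor, had 1.77, 1.41 and 1.80 CPM against 0 counts in controls (at least 105-fold). Among those that fell, Cx3cr1, the fractalkine receptor, had 48.98, 51.7 and 44.9 CPM in the LPS libraries, against 299, 320.5 and 271 CPM in the controls (-2.61 ± 0.54), Ccr2 had 1.03, 0.853 and 0.900 CPM in the LPS libraries, against 4.08, 6.14 and 3.70 CPM in the controls (-2.29 ± 0.46), and Ccr1 (-1.67), P2ry12 (-2.06), Gpr34 (-2.58) and the cannabinoid receptor Cnr2 (-5.51) were lower.

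Of 31 tested complement, clotting and matrix protease genes, 16 rose and 5 fell (13 and 12 with scaling to total counts alone). C3, the central complement protein, had 2228, 1733 and 1858 CPM in the LPS libraries, against 71.6, 75.4 and 53.7 CPM in the controls (4.86 ± 0.49), and Cfb, its alternative-path partner, rose by 6.84 ± 0.71. The C1q chains C1qa, C1qb and C1qc were not called. The clotting initiator tissue factor, F3, rose by 3.89 ± 0.41, whereas Thbd, the anticoagulant thrombomodulin, had 0.737, 0.591 and 0.225 CPM in the LPS libraries, against 13.3, 15.7 and 15.4 CPM in the controls (-4.88 ± 0.30) and Plau, the urokinase, fell by 3.16. The collagenase Mmp13 rose by 6.63 ± 0.46 to a mean of 2754 CPM with LPS against 27.9 CPM in controls. Of 20 tested antimicrobial and oxidase genes, 12 rose and 0 fell (8 and 5 with scaling to total counts alone). Cybb, the catalytic subunit of the phagocyte oxidase, had 5112, 4621 and 4752 CPM in the LPS libraries, against 1046, 1022 and 819 CPM in the controls (2.33 ± 0.15), and the acute-phase Saa3 rose by 4.61 ± 0.56. Lyz2, the lysozyme gene of myeloid cells, gave -0.09 ± 0.11.

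Factors that set macrophage identity fell and others rose. Of 33 tested, 15 rose and 14 fell (13 and 18 with scaling to total counts alone). Mef2c had 28.1, 28.1 and 28.6 CPM in the LPS libraries, against 151, 166 and 142 CPM in the controls (-2.44 ± 0.13, adjusted p = 1.05e-20), while Spi1 (PU.1) had 902, 890.4 and 1029.9 CPM in the LPS libraries, against 210.2, 218 and 279 CPM in the controls (2.00 ± 0.13). Mef2c was several-fold lower and PU.1 several-fold higher in the same libraries. Cebpb (1.58) and Cebpd (2.41) rose as their relative Cebpa fell. Prdm1 (2.94), Ahr (2.83) and the demethylase Kdm6b (2.40) rose, and the inhibitors Id1 (-2.33) and Id3 (-1.24) and the repressors Bhlhe40 (-2.84) and Nr1d1 (-2.33) fell. Maf was not called (-0.20 ± 0.10).

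Genes of DNA replication and mitosis fell together. Of 41 tested, 33 fell (39 with total counts) and 1, Ccnd2, rose under both scalings; 30 fell at least 2-fold and the median was -1.77. E2f2, an activator of S-phase genes, had 0.265, 0.328 and 0.275 CPM in the LPS libraries, against 31.2, 34.3 and 36.3 CPM in the controls (-6.87 ± 0.42, adjusted p = 1.81e-17). Cdc6, which loads the replicative helicase, had 1.09, 0.459 and 0.700 CPM in the LPS libraries, against 22.01, 19.1 and 17.1 CPM in the controls (-4.67 ± 0.41), and Mcm2, a helicase subunit, had 11.8, 12.8 and 16.98 CPM in the LPS libraries, against 99.6, 83.3 and 102 CPM in the controls (-2.77 ± 0.24). Ccnd1 fell by 2.48 and Ccne2 by 4.10. Mki67, the proliferation antigen, had 219, 230.0 and 219.9 CPM in the LPS libraries, against 246, 427 and 375 CPM in the controls (-0.65 ± 0.32, adjusted p = 0.0872), and Pcna (-0.05 ± 0.12) and Ccne1 (-0.14 ± 0.23) were not called either. The inhibitor Cdkn1a (p21) had 3543, 3894 and 3937 CPM in the LPS libraries, against 189, 265 and 284 CPM in the controls (3.94 ± 0.14), while Cdkn1b (p27) and Cdkn2c fell by 1.71 and 1.94. Cdkn2a, which rises in senescent cells, gave -0.09 ± 0.26. Over the list of 25 tested cell cycle inhibitors and p53 targets, 8 rose and 10 fell (7 and 17 with scaling to total counts alone). Sesn1 had 16.98, 15.5 and 14.2 CPM in the LPS libraries, against 211, 249 and 211 CPM in the controls (-3.85 ± 0.20).

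**Figure D3:**
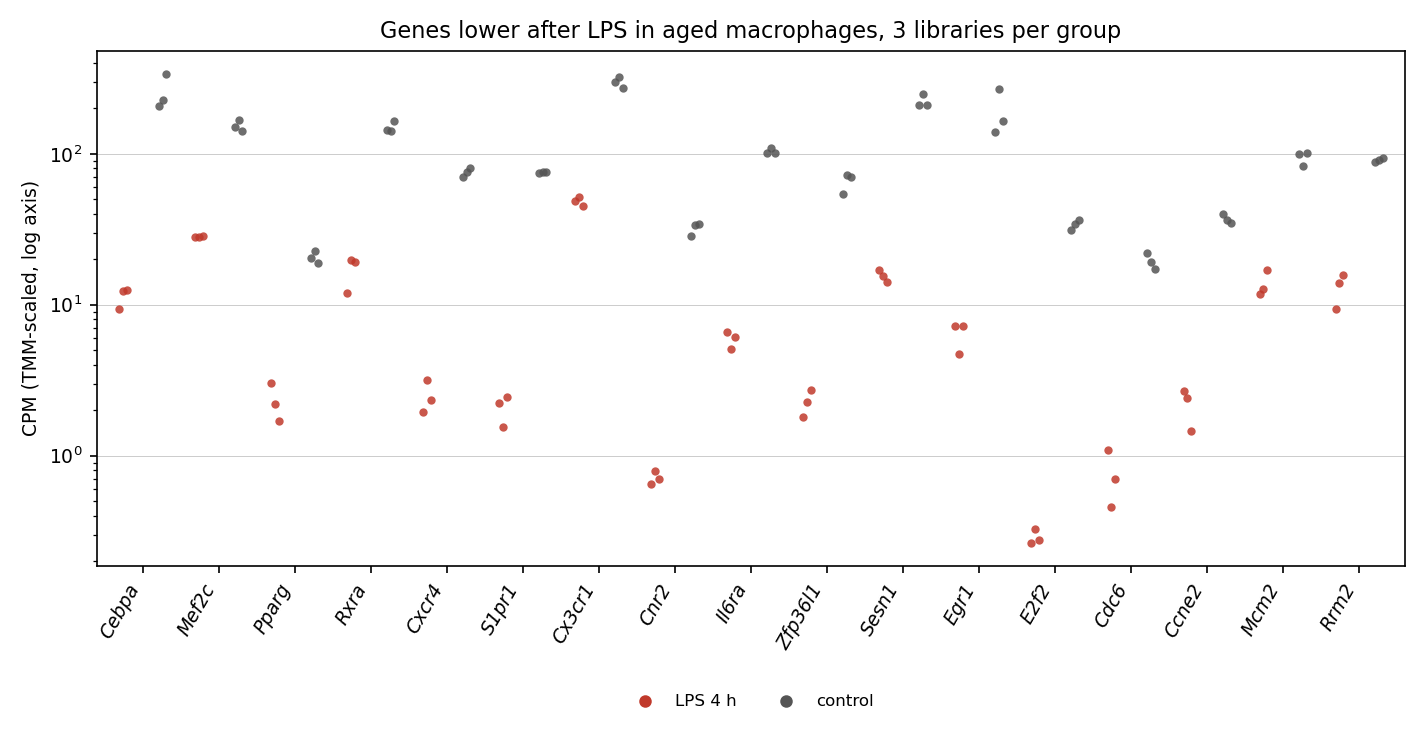
Level of 17 genes that fell after LPS in aged macrophages, in CPM on a log axis, with the 3 LPS libraries on the left of each gene and the 3 controls on the right. Each point is 1 library; in all 17 genes every LPS library lies below every control, and all 17 also fell with scaling to total counts alone.

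Of 20 tested survival and BCL-2 family genes, 15 rose and 2 fell (10 and 7 with scaling to total counts alone). Cflar, the caspase-8 inhibitor, had 2430.2, 2487 and 2439 CPM in the LPS libraries, against 122, 132 and 116 CPM in the controls (4.31 ± 0.09), Mcl1 rose by 1.31 ± 0.06 and Pim1 by 5.00 ± 0.21, and Bcl2 and Bmf fell by 2.47 and 4.81. The copies Bcl2a1a, Bcl2a1b and Bcl2a1d, whose reads may be shared, rose by 7.51, 2.44 and 5.98. Of 27 tested stress response genes, 8 rose and 12 fell (7 and 19 with scaling to total counts alone): Ppp1r15a (GADD34) rose by 4.05 ± 0.20 and the chaperone Hspa5 by 1.07 ± 0.10, and Trib3 (-3.06), Chac1 (-5.29), Eif2ak3 (PERK, -2.18) and Ddit3 (CHOP, -1.35) fell. Of 20 tested long noncoding RNAs, 7 rose and 8 fell (7 and 12 with scaling to total counts alone). Mir155hg, the host transcript of microRNA-155, had 133, 132 and 116 CPM in LPS libraries and 3 counts over the controls, a ratio of 7916 with a 95% counting interval of 2708 to 38392. AW112010 rose by 6.47 ± 0.41, and Neat1 and Gas5 fell by 1.21 and 0.98. The strand setting of the counting is not given, so reads of an antisense transcript such as Ptgs2os and of its partner cannot be told apart.

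A total of 55 genes had at most 3 counts over the 3 controls and at least 1 CPM in each LPS library, and 43 of them had 0 control counts. Ordered by level, with clone names left out, the first were Il12b, Nos2, Mir155hg and Cxcl11, followed by Lipg, an endothelial-type lipase (69.6, 36.3 and 31.4 CPM), the membrane protease Mmp25 (16.3, 17.03 and 20.01 CPM, at least 1124-fold) and the apolipoprotein Apol9b (15.9, 13.3 and 11.3 CPM, at least 837-fold). Slfn1 had 12.7, 10.9 and 11.8 CPM (at least 738-fold), and Sele, which encodes E-selectin, 3.42, 5.09 and 7.73 CPM (at least 348-fold). The T cell receptor signalling chain Cd247 had 7.67, 6.40 and 6.05 CPM (at least 418-fold) although Cd3d, Cd3e and Cd3g had no counts. Cd247 and Sele are best known from lymphocytes and endothelium, and both stayed low beside the cytokines. In the other direction, 10 genes had at least 1 CPM in each control and at most 3 counts over the LPS libraries, and 5 of these had 0 LPS counts. They included Vash2, an angiogenesis regulator, Hdac11, a histone deacetylase, and the sulfotransferase Chst10. Their mean control levels were 2.88, 1.37 and 1.39 CPM.

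Per kilobase of gene model, Ccl3, Ccl4 and Tnf came 4th, 5th and 6th of all tested genes in the LPS libraries, behind transcripts such as Lyz2 and Fth1. Ccl3 had 10657 CPM per kb in LPS libraries, against 71.2 CPM per kb in controls, where it ranked 483rd. Tnf had 5434 CPM per kb in LPS libraries, against 14.6 CPM per kb in controls, and Acod1, 10th after LPS, had 4225 CPM per kb in LPS libraries, against 4.96 CPM per kb in controls. Rsad2 and Cxcl10 came 11th and 12th after LPS, and 8418th and 11167th in controls. The ferritin chain Fth1, 3rd in both groups, rose by 0.67 with TMM and turned lower with total counts.

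Genes that rose lay next to each other in many places. Along the chromosomes there were 74 runs of at least 5 neighbouring tested genes that all changed at least 2-fold in 1 direction, 53 of higher and 21 of lower genes, with up to 22 and 9 genes. The Ifi200 family on chromosome 1, DNA sensors and their relatives, gave 17 of 17 genes higher with log2 changes of 2.54 to 10.48, and the 6 Ifit genes on chromosome 19 rose by 4.70 to 9.73. On chromosome 5, Cxcl9, Cxcl10 and Cxcl11 rose with Art3, whose annotated span holds Cxcl10 and Cxcl11. The neighbours U90926, Ppef2, Naaa and Sdad1 before them and Nup54 after them rose too. On chromosome 11, Ccl5, Ccl9, Ccl3 and Ccl4 rose around Ccl6, which did not pass the test. Of the 12 flanking genes of each stretch, 5 were higher and 3 lower beside the Ifi200 genes, 3 higher and 4 lower beside the Ifit genes, 7 higher and 1 lower beside Cxcl9 to Cxcl11, and 11 higher and 1 lower beside Ccl5 to Ccl4, so rises also lay outside the named stretches. Many of these families are made of close copies, whose reads can be shared in counting. Some annotated spans also overlap: Art3 with Cxcl10 and Cxcl11, E230016K23Rik with Ccl6, and Gm44339 with Ifi209. With the strand setting not given, reads of such overlapping genes may not be told apart.

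**Figure D4:**
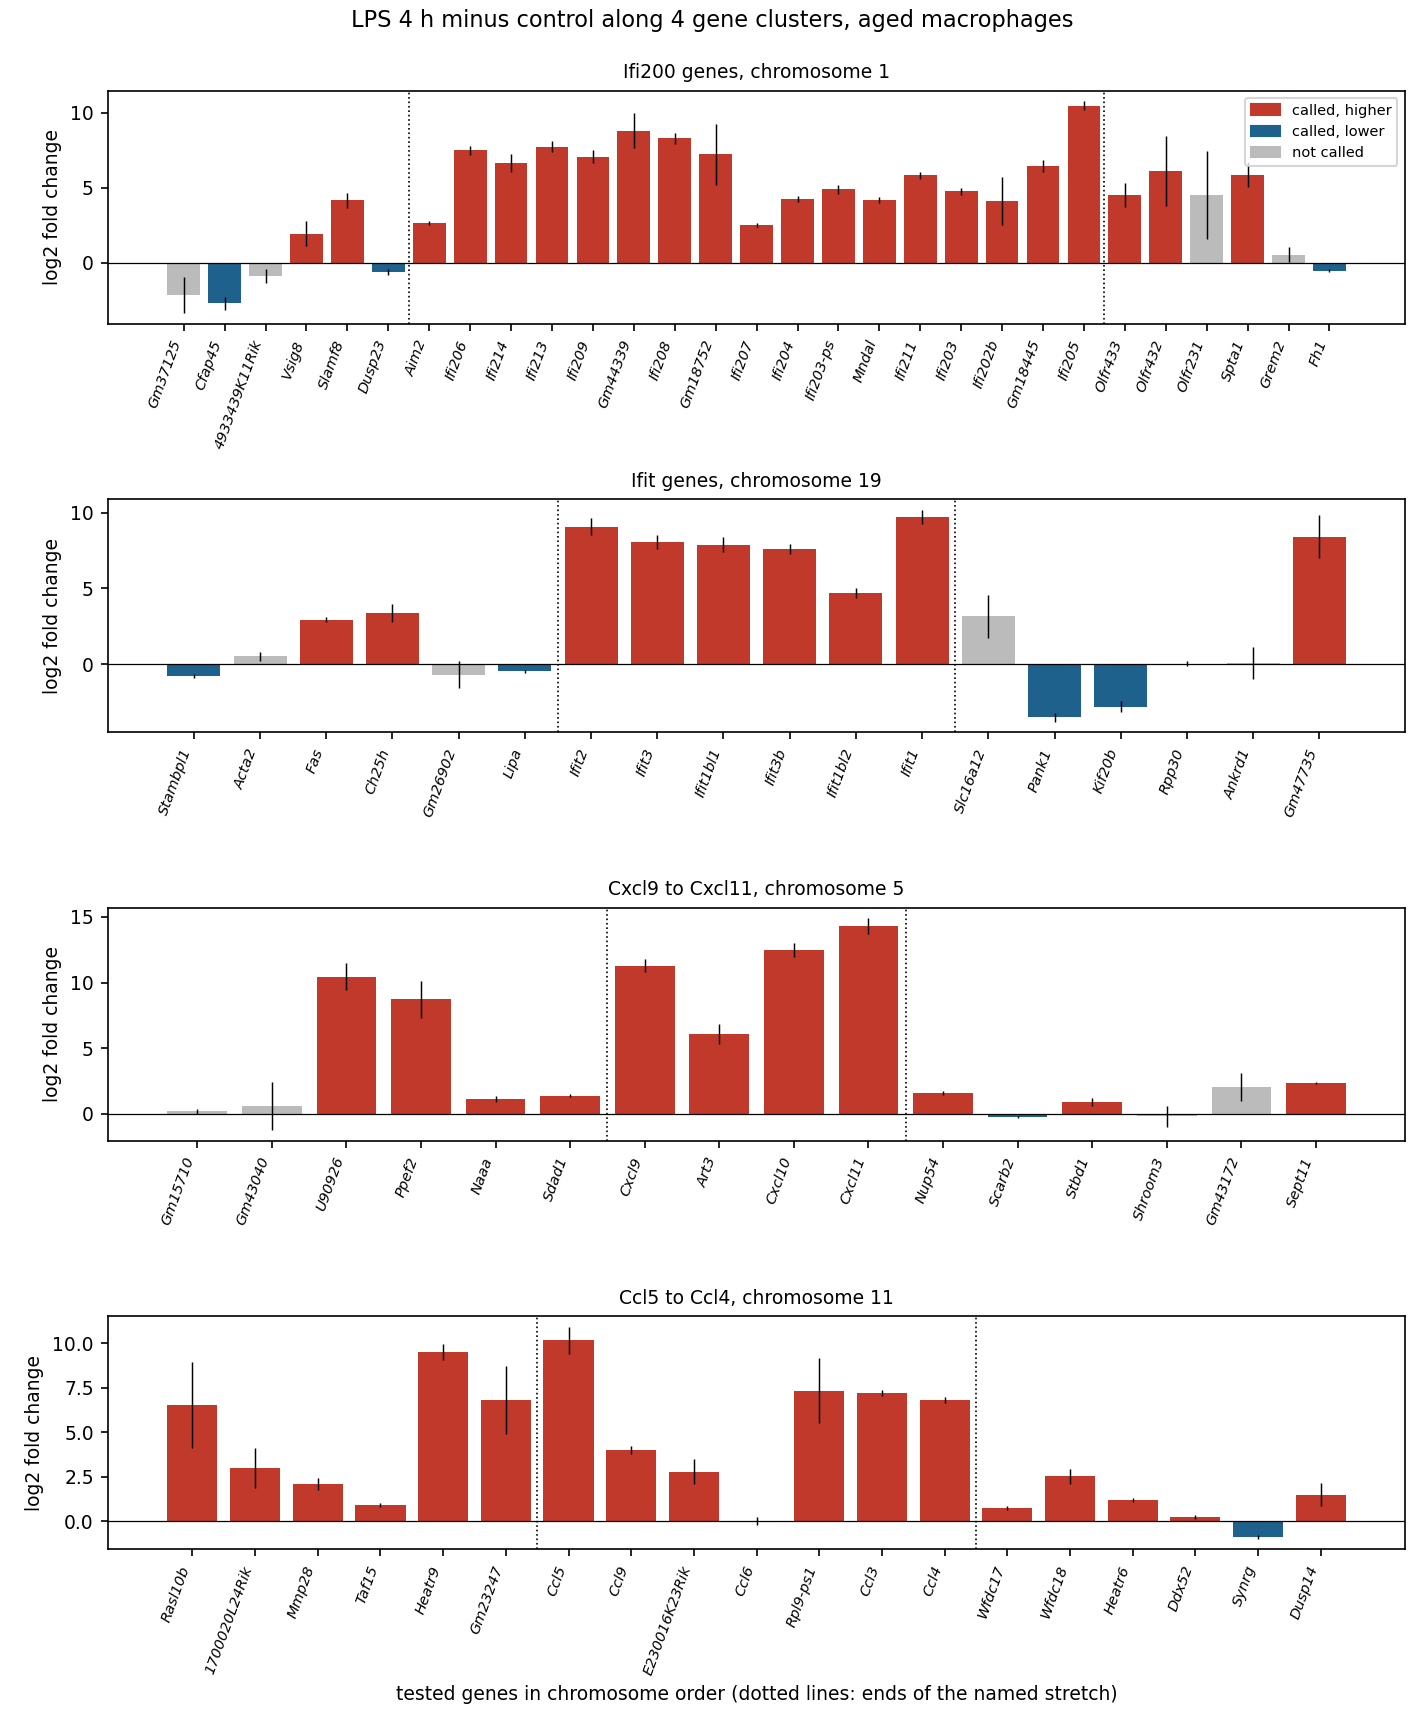
Log2 fold change (LPS at 4 h minus control, bars with SE) of tested genes in chromosome order along 4 clusters, with 6 flanking genes on each side of the dotted lines. Red bars were called higher, blue lower and grey not called; all 17 genes of the Ifi200 stretch, all 6 of the Ifit stretch and all 4 from Cxcl9 to Cxcl11 are higher, as they were with scaling to total counts, and 6 of 7 from Ccl5 to Ccl4 are higher.

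Other samples of aged macrophages received β-glucan for the same time, and this group allowed the LPS libraries to be compared with another stimulus of 4 h. The comparison shares the LPS libraries with the one above. Of 17648 genes, 9134 (51.8%) differed, 4358 higher with LPS (24.7%) and 4776 lower (27.1%), or 2138 higher and 9182 lower with scaling to total counts alone. Il12b had 1821, 1519.6 and 1975 CPM with LPS and 0.157, 0.280 and 0.130 CPM with β-glucan (13.21 ± 0.31, adjusted p = 3.26e-35), and Il6 had 1410.1, 1219.6 and 1141 CPM with LPS and 0.227, 0.216 and 0.185 CPM with β-glucan (12.53 ± 0.30). For Il6 the β-glucan libraries overlapped the controls. Oasl1 (10.55 ± 0.29), Cmpk2 (9.70 ± 0.40) and Mx1 (9.65 ± 0.52) completed the 5 largest differences upward among genes whose log2 CPM averaged 3 or more over these 6 libraries, and Lhfpl2 (-6.19 ± 0.19), Cxcr4 (-5.54 ± 0.28), Tmem86a (-4.97 ± 0.23), Arhgap19 (-4.86 ± 0.18) and S1pr1 (-4.70 ± 0.31) the 5 largest downward. Tnf had 8406, 9564 and 8749 CPM with LPS, 186, 192 and 257 CPM with β-glucan and 21.3, 26.1 and 24.2 CPM in controls (5.39 ± 0.23 for LPS minus β-glucan), so β-glucan libraries lay between. Acod1 had 216, 274 and 344 CPM and Nfkbia 277, 245 and 446 CPM with β-glucan, each between its LPS and control libraries. Ifnb1 had 0 counts in the β-glucan libraries. Of the 54 antiviral genes, all 54 were higher with LPS than with β-glucan, of the 27 NF-κB genes 22 were higher and 0 lower (19 and 5 with total counts), and of the 16 receptors and coreceptors 12 were higher and 2 lower (9 and 3 with total counts). The 55 genes near absent in controls, which were chosen on the LPS libraries and the controls, all had a mean below 1 CPM with β-glucan. Tlr4 had 77.1, 84.7 and 67.3 CPM with β-glucan (0.02 ± 0.13, adjusted p = 0.905).

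The series includes both ages, so the LPS effect in aged cells could be tested against that in young cells. No gene passed an adjusted p of 0.05 for the difference (0 of 17648, 0%), 910 had an unadjusted p below 0.05, and DESeq2 called 7. In young cells LPS changed 11526 genes (65.3%). That count came from 6 libraries per group, against 3 in aged cells, so the counts of the 2 ages cannot be compared directly. Of 41 key genes with control counts, 39 had fold changes in the same direction at both ages, the exceptions being Mertk (-0.04 ± 0.11 in aged and 0.17 ± 0.08 in young cells) and Arg1 (0.69 ± 1.23 in aged and -0.998 ± 0.73 in young cells), whose mean was below 1 CPM in each of these groups. The smallest p was that of Ccl4, whose log2 change was 6.80 ± 0.16 in aged and 7.64 ± 0.12 in young cells (difference -0.84 ± 0.16, adjusted p = 0.105). In young libraries, Ccl4 ranged around a median of 4214 CPM with LPS (lowest 3190, highest 5846) and 21.7 CPM in controls (lowest 18.7, highest 23.9), so the aged controls given above lay higher than all 6 young controls. Ccl3 gave a difference of -0.64 ± 0.15 (adjusted p = 0.578), with 8925 CPM with LPS (7955 to 9689) and 38.7 CPM in controls (27.9 to 46.5) in young cells. Acod1 (1.02 ± 0.37, adjusted p = 0.845), Socs1 (-1.20 ± 0.48, adjusted p = 0.891) and Il6 (-1.73 ± 0.96, adjusted p = 0.969) did not pass. For Tnf the difference was 0.15 ± 0.25, with a young median of 10453 CPM with LPS (8824 to 14008) and 27.3 CPM in controls (20.9 to 62.7).

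The young libraries carry replicate numbers 1 to 6, and the result depended on which of them were used, a choice made after seeing the data. Against young replicates 1 to 3 alone, 0 genes were called and the Ccl4 difference was -0.61 (adjusted p = 0.943). Against young replicates 4 to 6 alone, 36 genes were called, Ccl4 among them (-1.07, adjusted p = 0.00312), with Ccl3 (-0.85), Tlr2 and Atf3. Leaving out 1 library called Ccl4 alone in 3 of 18 cases: adjusted p = 0.0403 without aged control replicate 2, 0.0157 without young LPS replicate 3 and 0.0397 without young control replicate 3. DESeq2 on all libraries also called Ccl4 (-0.84, adjusted p = 0.00494). The Ccl4 difference was negative in every setting, but its size moved with the set of young libraries. Its call moved with these, with 1 aged library and with the method.

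**Figure D5:**
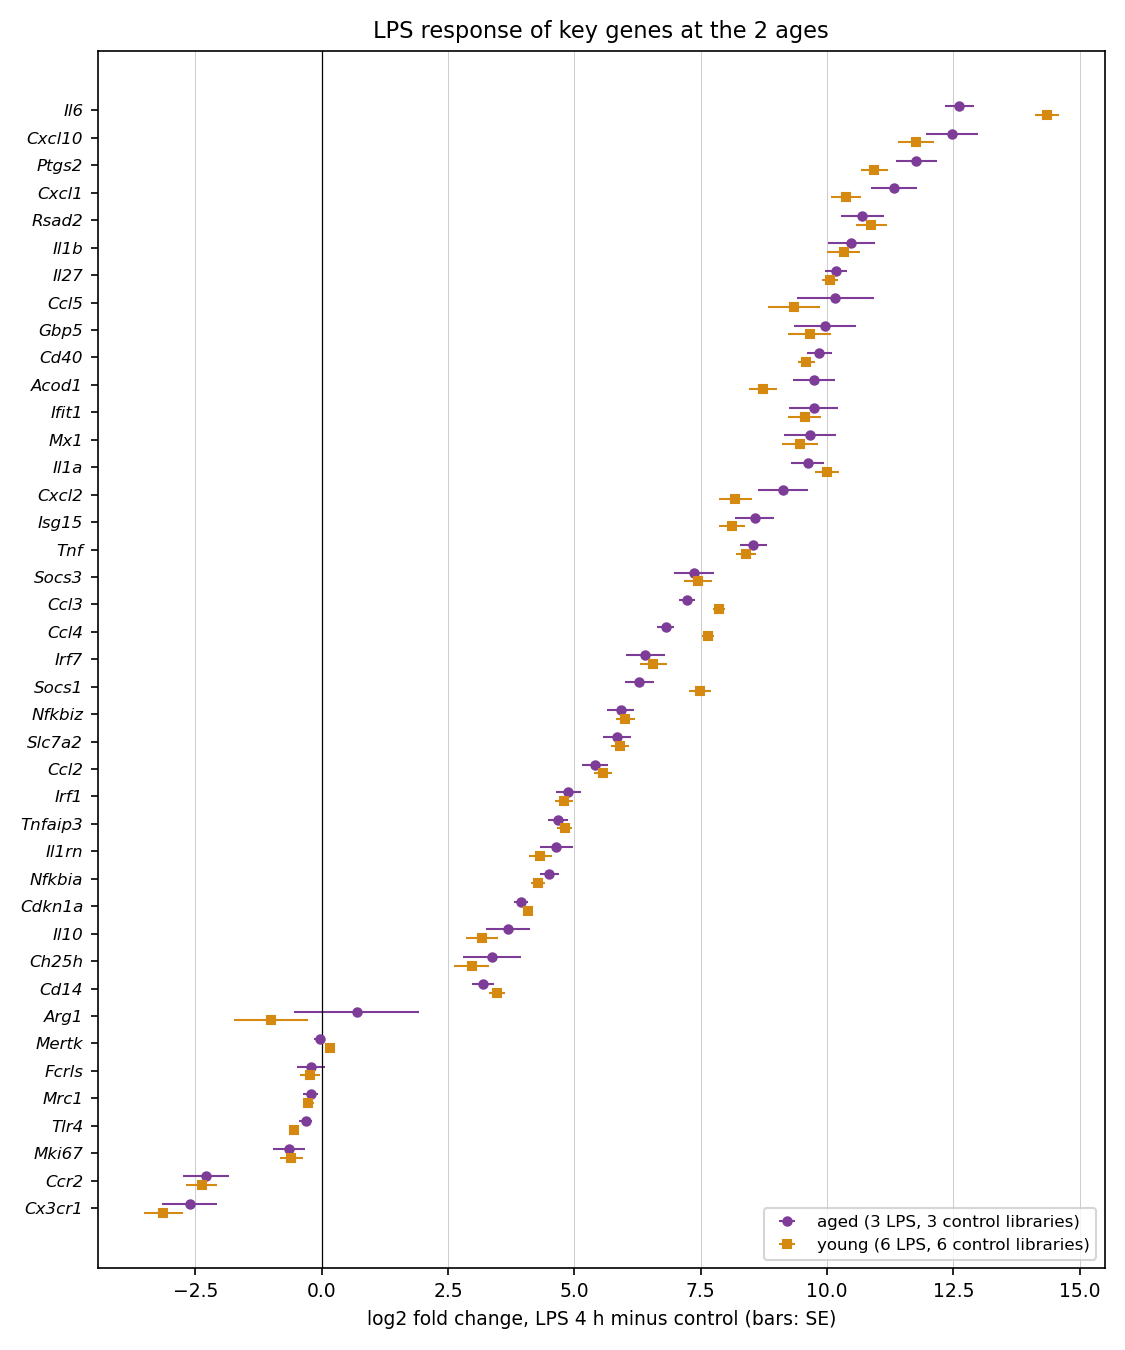
Log2 fold change with SE (LPS at 4 h minus control) of 41 key genes in aged macrophages (circles, upper of each pair) and young macrophages (squares, lower), ordered by the aged value. For 39 of 41 genes both ages lie on the same side of 0, and Ccl4 (6.80 aged, 7.64 young) has the smallest p of the difference, 0.105 after adjustment.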

How the data were processed

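Bulk RNA sequencing of 42 libraries of bone marrow-derived macrophages was used as 1 table of raw gene counts, which the authors deposited. Per the submitters' processing notes, STAR and the mm10 build were used; versions, the counting program, the annotation release and the strand setting are not given in the sources used here. A second deposited table, of FPKM, was not used. Libraries were placed in groups by their labels. Counts per library were 39850835 to 67347866 over the series, and over 99.98% of counts lay in tested genes.

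Genes passing edgeR's filterByExpr at a minimum count of 10 (17648 of 54532) were scaled by TMM and fitted with edgeR 4.0.16 in R 4.3.3 by quasi-likelihood (robust, 29 residual degrees of freedom) in 1 model of 12 groups with a term for young replicates 4 to 6. Contrasts were tested 2-sided by F tests with Benjamini-Hochberg adjustment over all tested genes, called below 0.05. SE is the log2 change divided by the root of F. CPM are counts divided by the TMM-scaled library total and multiplied by 1e6, and log2 CPM for the correlations used a prior count of 2. A gene at 0 in controls was set against 3 counts over the group. This floor and the counting intervals (95%) cover counting error only.

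The script was tested on simulated data (16342 genes of this contrast). In those data it recovered 70.1%, 94% and 100% of 1.5-, 2- and 4-fold changes, and 6.38% of calls were false. Whether these shares hold for the calls reported here was not tested. Alternatives included DESeq2 1.42.0, other scalings, no filter, smaller fits, a replicate block and leaving out each library. Named genes are the 12 largest rises and falls (called, log2 CPM averaging 3 or more, non-overlapping groups and no clone name), a list of key genes, list members with the smallest adjusted p, the genes near absent in controls and the highest per kilobase. The members and lists were chosen with earlier results of these data known. A few list members are not reported by name here. Promoter windows came from RefSeq (GRCm38.p6), matched by symbol.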

Additional observations from a re-analysis of the deposited data

Results flagged for a closer look

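In 2 of 19 groups of 6 young libraries examined for the age comparison, 1 library stood apart from the other 5, and about 1 in 20 would do so by chance. Socs1 in young controls ranged from 0.222 to 1.80 CPM, and the gap between the highest library and its neighbour took 0.683 of that range. Cxcl2 in young controls ranged from 6.84 to 45.1 CPM, with a gap of 0.733 of the range. Neither gene was called for the age difference. Aged groups of 3 libraries are too small for this check.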

How the results depend on the processing

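The counts for LPS against control kept their size under every alternative but 1. With scaling to total counts alone, 2393 genes were higher and 9697 lower, by construction of the scale. Of the 9974 calls, 97.8% were kept in the same direction with DESeq2-type size factors in edgeR, 95.7% with DESeq2, 94.1% without a count filter, 90.4% with the 6 libraries alone, 95.2% with the 18 aged libraries and 75.2% with total counts, which turned 924. Leaving out each library gave 4558 to 4616 higher and 4596 to 4933 lower genes, and 8393 to 8606 differences from β-glucan. For the age difference, leaving out each library gave 0 to 1 genes, DESeq2 gave 7 and young replicates 4 to 6 alone, chosen after seeing the data, gave 36; the cause was not tested. Of the 61 genes in the largest rises and falls and the key genes, no called one turned under these settings, and the uncalled Arg1 and Mertk changed sign under some. Beyond Tlr4, whose losses are given above in part (also 0.0789 with DESeq2-type factors, 0.0508 without a filter, 0.0981 with 6 libraries, 0.0929 with 18 and 0.0593 without the term for the young set), Mki67 passed without control replicate 1 (-0.85, adjusted p = 0.0411) and with 6 libraries alone (-0.63, 0.0146), and Mki67 (-1.39), Mrc1 (-0.95), Mertk (-0.78) and Fcrls (-0.95) passed with total counts.

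Same-numbered LPS and control libraries deviated from their group means with correlations of 0.175, -0.072 and 0.209 across genes whose log2 CPM averaged 3 or more. Differently numbered ones gave -0.227 to 0.0858, so the values for replicates 1 and 3 were the highest. With 3 libraries per group, whose deviations sum to 0, these values cannot decide whether the numbers pair the samples. The labels state no pairing, so none was used in the main model. With replicate number as a block, 4907 genes were higher and 5157 lower, 9247 differed from β-glucan and 0 differed by age. Depth limits the genes near 0 in the controls, whose folds are bounds.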

Other observations

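Classes of transcript differed in how they were called between LPS and control libraries. Of 13435 tested protein-coding genes, 30.7% were higher and 33.6% lower. Of 1171 tested processed pseudogenes, which are reverse-transcribed copies of other genes, 20.3% were higher and 5.29% lower, and of 664 tested lincRNAs 14.3% were higher and 23.5% lower. Of 9 tested variable segments of T cell receptor genes, 0 were higher and 7 lower, with a median log2 change of -5.51, in libraries where Cd3d, Cd3e and Cd3g had 0 counts. These shares are on the TMM scale and would move down with total counts.

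The longest stretch of neighbouring genes that all rose at least 2-fold held 22 tested genes on chromosome 1 around Sp110, Sp140 and Sp100, nuclear body proteins, with a median log2 change of 4.55. Another of 13 genes on chromosome 11 held Irgm1, Tgtp1, Tgtp2 and Ifi47 with olfactory receptor genes between and beside them (median 5.21), and 1 of 10 on chromosome 17 held Fpr1, Fpr2 and Fpr3 with Vmn2r90, a vomeronasal receptor gene (median 5.51). No test was made of how often such stretches arise.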
